A study of Mus musculus with 12 samples.

Results

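The genes described are the 3 classical MHC class II chains of the mouse ileum (H2-Aa, H2-Ab1 and H2-Eb1), the invariant chain Cd74, the peptide editor chains H2-DMa and H2-DMb1, and the class II transactivator Ciita. They were taken by symbol from a table of 35275 genes, each of the 7 symbols had 1 row, and all 7 passed the filter on low counts. The samples were 12 libraries of total RNA from whole ileum, the stretch of the small intestine nearest the colon, of C57BL/6 pups on postnatal day 14. The 3 stressed males and 3 stressed females came from 3 dams restrained in a ventilated tube, 2 h on each gestational day between days 7 and 19. The 3 control males and 3 control females came from 3 dams left undisturbed in their home cages, and in both arms the dams had been bought pregnant. Each dam gave 1 male and 1 female pup, so that libraries of the same arm and number are littermates, and the word stressed refers to the dam. The study asked whether restraining a pregnant dam alters which genes the ileum of her pups expresses.

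MHC class II molecules are cell surface heterodimers that show peptides from endocytosed proteins to CD4 T cells. The α and β chains assemble with Cd74 in the endoplasmic reticulum, Cd74 guides them to endolysosomes and is cut down there by cathepsins, and the H2-DM heterodimer exchanges the remaining fragment for peptide. Ciita binds no DNA itself but is recruited by factors on the X and Y boxes of class II promoters and sets the level of transcription. Dendritic cells, B cells and many macrophages express class II constitutively, and the epithelium of the small intestine expresses it too, above all after weaning and under interferon gamma.

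The 6 male libraries held 16423523 to 20075567 counted reads and the 6 female libraries 20730243 to 22975526. Some libraries stood apart from the rest. Genes of the upper small intestine, such as Apoa4, Lct and Slc40a1, summed to 16886 CPM (reads of a gene per 1e6 reads of its library, scaled by TMM) in control male 3 and to 8754 CPM in its littermate, the female pup of the same dam, against 1862 to 3891 CPM in all remaining libraries. Genes of the enterocyte after weaning (Sis, Treh and Arg2) summed to 1132 CPM and 92.5 CPM in these pups, against 5.93 to 23.0 CPM in all remaining libraries. Of the ileal markers in control male 3, Fabp6, a bile acid binding protein, stood at 0.716 CPM and Fgf15, a hormone of the ileum, at 24.7 CPM, while Slc51a, a bile acid exporter subunit, stood at 372 CPM. Reads of the noncoding RNA gene Yam1 made up 1.39% of stressed male 1, 4.13% of stressed male 3 and 1.00% of control male 1, against 0.171% to 0.5% elsewhere, and stressed males 1 and 3 gave 2.18% and 1.16% of reads to mitochondrially encoded genes, against 3.01% to 4.59% in the others. The tests were also run without both pups of control dam 3, and those of pups without the 3 libraries rich in Yam1.

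Per unit of length Cd74 was the most abundant of the 7 genes in the pup ileum, followed by the classical chains, the H2-DM chains and, far below, Ciita. In deposited FPKM (reads scaled to gene length and to the library total), Cd74 averaged 163 ± 39.1 over the 12 libraries (SD), with a range of 71.1 to 222. H2-Ab1 averaged 77.0 ± 17.0, H2-Aa 66.5 ± 17.8 and H2-Eb1 60.1 ± 16.1 FPKM, and the means of neighbours lay within 1 SD. That SD is between libraries and does not measure the difference between genes of the same library. Within a library, H2-Aa over H2-Eb1 averaged 1.11 ± 0.080 and H2-Ab1 over H2-Aa 1.20 ± 0.258 (SD, 12 libraries). The peptide editor chains were about as abundant as each other, with 5.73 ± 1.32 FPKM for H2-DMb1 and 5.39 ± 1.61 FPKM for H2-DMa. Ciita averaged 1.47 ± 0.395 FPKM, between 0.687 and 2.04. The counts behind these levels ran from 1861 to 5945 reads a library for Cd74 and from 67 to 213 for Ciita.

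In GRCm38 coordinates of the files, 5 of the 7 genes lie within chromosome 17, from 34135182 to 34316199. H2-DMa is at 34135182 to 34139101 and H2-DMb1 at 34153072 to 34160230, both on the plus strand. H2-Ab1 is at 34263209 to 34269418 on the plus strand, H2-Aa at 34282744 to 34287827 on the minus strand and H2-Eb1 at 34305877 to 34316199 on the plus strand. Cd74 lies outside this region, as does Ciita, on chromosome 16 from 10488178 to 10527564 on the plus strand. H2-DMb1 has a near-identical neighbour, H2-DMb2, so that its counts are uncertain where reads could not be placed between them. Ciita overlaps Dexi, which is encoded on the opposite strand and held 2444 reads over the 12 libraries. Since no source states whether reads were counted by strand, reads of the shared stretch cannot be told apart.

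The short stretch that carries the X and Y boxes is shown for 4 class II genes, because it is the element through which Ciita acts and the genes have it at a similar place. The sequences are from RefSeq promoter windows of GRCm38.p6 (250 bases before to 50 bases after the start), given 5′ to 3′ on the strand of the gene. Capitals mark the core of the X box (AACNNATG) or, in H2-Aa, a cAMP response element (TGACGTCA), followed by the core of the Y box (GATTGG). These letters were chosen after the sequences had been seen. The letters of the X core were not found in H2-Aa. Its cAMP response element lay 17 bases before the Y core, nearer than the X cores of the other genes shown. Whether H2-Aa has an X box of other letters was not examined.
H2-Aa, chr17:34287861-34287913, minus strand: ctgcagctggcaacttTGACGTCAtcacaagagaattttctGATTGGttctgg
H2-Eb1, chr17:34305762-34305818, plus strand: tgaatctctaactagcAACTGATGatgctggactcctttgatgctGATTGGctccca
H2-Ob, chr17:34238804-34238858, plus strand: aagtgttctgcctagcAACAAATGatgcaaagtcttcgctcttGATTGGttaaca
H2-Eb2, chr17:34325529-34325585, plus strand: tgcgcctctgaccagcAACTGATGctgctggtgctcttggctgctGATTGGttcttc

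The X core began at position -89 from the RefSeq start in H2-Eb1, at -85 in H2-Ob and at -130 in H2-Eb2, and the Y core lay 19 to 21 bases behind it. In H2-Aa the cAMP response element began at -74 and the Y core at -49. H2-DMb1 had an X core at -92 and a Y core at -62, and H2-DMb2 had them at -121 and -91. On either strand the X core was found in 8.86% of the 32851 windows of all genes, the Y core in 16.1% and the cAMP response element in 1.79%. An X core followed on the strand of the gene by a Y core 10 to 30 bases further on was found in 17 windows (0.0517%), and 5 of these belong to class II genes. Icosl, a costimulatory ligand of antigen-presenting cells, was among the other windows. Of the 7 genes 4 had a window, and H2-DMa had windows only upstream of the start in the files, where the Y core alone was found. No entry was present for H2-Ab1, Cd74 and Ciita. A match of letters describes the sequence and not the binding of a factor.

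The α and β chains of the I-A molecule, the class II molecule that C57BL/6 mice carry at the cell surface, varied more among male pups than with stress of the dam. H2-Aa stood at 55.4, 85.0 and 60.4 CPM in stressed males 1 to 3, against 30.6, 94.8 and 99.3 CPM in control males 1 to 3. Among the females, stressed pups had 97.8, 77.8 and 72.5 CPM, against 73.5, 65.3 and 90.7 CPM in control pups. The 3 stressed males lay inside the range of the control males, whose lowest and highest libraries were also the extremes of all 12 in CPM. In FPKM, which are not scaled by TMM, stressed female 1 was the highest, at 91.1, and control male 3 stood at 76.9. H2-Ab1 stood at 99.7, 93.2 and 105 CPM in stressed males, against 42.7, 98.7 and 148 CPM in control males. The stressed females had 92.8, 81.1 and 82.8 CPM, against 81.3, 84.6 and 118 CPM in control females. Here too the stressed males lay close together, with a mean of 99.2 ± 5.77 CPM, inside the control males, with a mean of 96.6 ± 52.8 CPM (SD, n = 3 each).

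H2-Eb1, the β chain of the second class II molecule I-E, was counted at a level like that of H2-Aa although its partner was not detected. The α chain gene is defective in C57BL/6, where it is annotated as H2-Ea-ps, and H2-Eb1 is known to be transcribed without forming a surface dimer. H2-Eb1 stood at 49.6, 84.1 and 50.6 CPM in stressed males, against 33.7, 92.7 and 94.3 CPM in control males. H2-Eb1 in stressed females was at 84.7, 74.4 and 65.8 CPM, against 70.0, 63.4 and 91.3 CPM in control females. Groups overlapped in both sexes. H2-Ea-ps had 0 reads in each of the 12 libraries, of 243516156 reads in all, where 3 counts, the limit that a count of 0 allows, equal 0.0123 CPM. In the smallest library alone that limit is 0.183 CPM or 0.266 FPKM, and it covers counting error only.

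Cd74, the invariant chain, followed the classical chains. It stood at 208, 261 and 188 CPM in stressed males, against 100.4, 278 and 358 CPM in control males. In females it stood at 258, 224 and 214 CPM in stressed pups, against 207, 219 and 256 CPM in control pups. The female libraries were within 1.24-fold of each other, while the males spanned 3.57-fold between control male 1 and control male 3.

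The H2-DM chains, which edit the peptide, were low in the same male. H2-DMa stood at 5.13, 10.7 and 5.84 CPM in stressed males, against 3.34, 10.1 and 11.4 CPM in control males. Stressed females gave 10.2, 7.84 and 9.17 CPM, against 9.08, 7.26 and 10.6 CPM in control females. Stressed males 1 and 3 were the lowest libraries after control male 1. H2-DMb1 stood at 6.94, 8.39 and 5.97 CPM in stressed males, against 5.34, 7.61 and 13.0 CPM in control males. Its level in females was 7.55, 7.88 and 7.19 CPM in stressed pups, against 7.73, 7.64 and 11.98 CPM in control pups. Both pups of control dam 3 were the highest for H2-DMb1, and the other 10 libraries lay between 5.34 and 8.39 CPM.

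Ciita, the regulator of the other 6 genes, did not follow them in all libraries. It stood at 9.81, 7.51 and 11.2 CPM in stressed males, against 3.61, 10.5 and 10.7 CPM in control males. For the females Ciita was at 7.16, 6.65 and 6.08 CPM in stressed pups, against 6.41, 6.84 and 6.88 CPM in control pups. Control male 1 was again the lowest library, but stressed males 1 and 3, which were low in H2-Aa, H2-Eb1 and H2-DMa, were among the highest for Ciita. H2-Ab1 was not low in stressed males 1 and 3 either, at 99.7 and 105 CPM. The 6 females lay within 1.18-fold of each other.

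**Figure D1:**
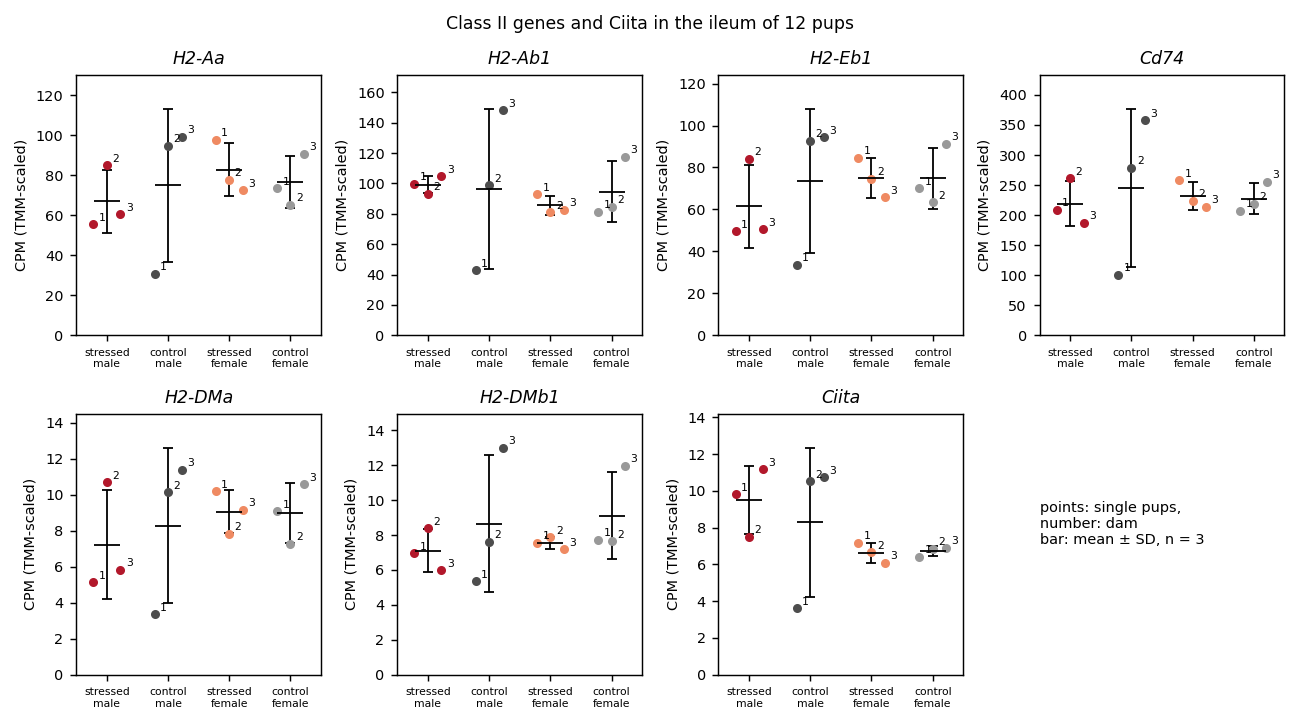
TMM-scaled CPM (y axis) of the 7 genes in the 12 libraries by group (x axis); points are single pups, the number beside a point is the dam, and bars are the mean ± SD of 3 pups. Control male 1 is the lowest library in each panel, and stressed and control pups of each sex overlap in all 7 panels.

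Stress of the dam was not followed by a detectable change of any of the 7 genes in males. edgeR's quasi-likelihood test called 0 of 7 at an adjusted p of 0.05, where 0% of the 16102 genes tested were called, and 0 of 7 had an unadjusted p under that threshold, where 6.38% of all genes did. Stressed and control males overlapped for all 7 genes, where 2.94% of all genes had each stressed male lower and 2.72% had each of them higher. DESeq2, limma-voom and limma on FPKM also called 0 of 7 in this and in the other comparisons. H2-Aa differed between stressed and control males by -0.16 ± 0.35 on the log2 scale (SE), with a 95% interval of -0.93 to 0.61, and Cd74 by -0.16 ± 0.34, with an interval of -0.91 to 0.58. These intervals leave room for differences of either sign that are larger than the estimates. The other values were 0.04 ± 0.33 for H2-Ab1, -0.26 ± 0.34 for H2-Eb1, -0.19 ± 0.40 for H2-DMa, -0.28 ± 0.30 for H2-DMb1 and 0.20 ± 0.33 for Ciita. Adjusted p-values ran from 0.854 to 0.987 in edgeR. The estimate was below 0 for 5 of 7 genes, against 48.3% of all genes, and the median was -0.16, against 0.01 over all genes. Without control male 1 the median was -0.54 and without control male 3 it was 0.13, so the direction in males rested on 1 library.

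In females the estimates lay between -0.27 and 0.11 on the log2 scale. edgeR called 0 of 7, as it did 0% of all genes, and 0 of 7 had an unadjusted p under the threshold, where 0.298% of all genes did. The groups overlapped for all 7 genes, where 2.48% of all genes had each stressed female lower and 3.07% had each of them higher. H2-Aa differed by 0.11 ± 0.35, H2-Ab1 by -0.14 ± 0.33 and Cd74 by 0.03 ± 0.34 on the log2 scale, with stressed over control females. H2-DMb1, at -0.27 ± 0.30, was the farthest from 0, with a 95% interval of -0.92 to 0.37 and an adjusted p of 1, and it was -0.03 without control female 3. Ciita, at -0.02 ± 0.33, H2-DMa, at 0.01 ± 0.39, and H2-Eb1, at 0.00 ± 0.34, were close to 0. The estimate was below 0 for 3 of 7 genes, against 51.5% of all genes.

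The change in males minus the change in females was also tested, since pups of both sexes were taken. edgeR called 0 of 7 genes, as it did 0% of all genes, and 0 of 7 had an unadjusted p under the threshold, where 2.15% of all genes did. The difference ran from -0.27 ± 0.50 in H2-Aa to 0.21 ± 0.46 in Ciita on the log2 scale. With single libraries left out, that of H2-Aa ran from -0.65 without control male 1 to -0.02 without control male 3. Its 95% interval in H2-Aa was -1.36 to 0.81, so that a sex-specific change of moderate size was not detectable with 3 pups in a group.

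**Figure D2:**
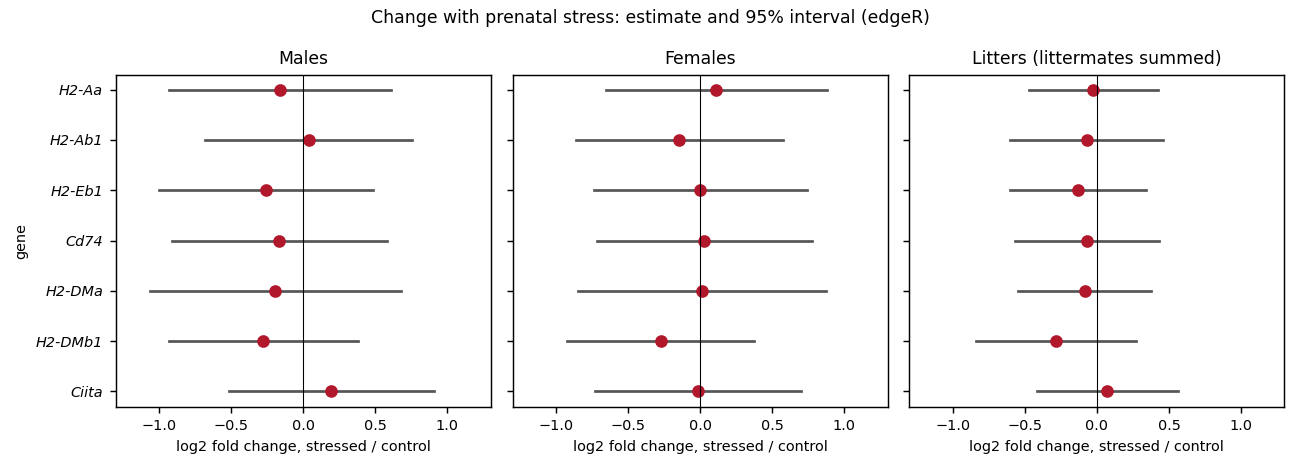
Estimated log2 fold change (x axis), stressed over control, of each of the 7 genes (y axis) in males, in females and in litters with littermates summed; points are edgeR estimates and lines are 95% intervals. Each interval includes 0, and the intervals of the litters are narrower than those of the pups for all 7 genes.

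With the counts of littermates summed, the dam was the replicate, and the 7 estimates lay between -0.28 and 0.07 on the log2 scale. Cd74 stood at 232, 244 and 202 CPM in stressed litters, against 162, 252 and 298 CPM in control litters. H2-Aa stood at 77.2, 82.2 and 67.2 CPM in stressed litters, against 55.3, 80.9 and 94.2 CPM in control litters. For both genes each stressed litter lay inside the range of the control litters. Ciita stood at 8.28, 7.14 and 8.20 CPM in stressed litters, against 5.24, 8.77 and 8.48 CPM in control litters. H2-DMb1 stood at 7.17, 8.22 and 6.66 CPM in stressed litters, against 6.74, 7.74 and 12.4 CPM in control litters. Its control mean rested on dam 3, and the groups overlapped for each of the 7 genes, where 3.18% of all genes had all stressed litters lower and 2.53% had all of them higher.

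edgeR called 0 of 7 genes in litters, as it did 0% of the 16749 genes tested, and 0 of 7 had an unadjusted p under the threshold, where 1.36% of all genes did. The log2 difference was -0.02 ± 0.19 for H2-Aa, with a 95% interval of -0.47 to 0.42, and -0.07 ± 0.21 for Cd74, with an interval of -0.57 to 0.43. It was -0.07 ± 0.23 for H2-Ab1, -0.13 ± 0.20 for H2-Eb1, -0.09 ± 0.20 for H2-DMa and 0.07 ± 0.21 for Ciita. H2-DMb1 was the farthest from 0, at -0.28 ± 0.24, with an interval of -0.84 to 0.27 and an adjusted p of 1.00. Below 0 were 6 of 7 genes, against 48.7% of all genes, but without control dam 3 the estimate for H2-DMb1 was 0.03 and the median of the 7 was 0.13, against -0.07 with it. The authors' deposited table holds a contrast of stressed with control pups of both sexes, which is not labelled as one of summed litters. There H2-DMb1 had a log2 fold change of -0.20 and an authors' p-value of 0.169, and no gene had an adjusted p under 0.05.

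Males and females differed more in spread than in mean. The coefficient of variation of Cd74 was 37.9% over the 6 males and 9.49% over the 6 females, and that of Ciita was 32.5% over the males and 5.71% over the females. For H2-Aa it was 37.6% in males and 15.4% in females, and for H2-DMb1 34.8% in males and 21.7% in females. Without control male 1 it was 14.6% for Ciita, 25.8% for Cd74, 25.3% for H2-Aa and 32.6% for H2-DMb1 in the remaining males. No test was made of these spreads, since the males hold both control male 1 and the libraries rich in Yam1. In the comparison of means edgeR called 0 of 7 genes, with 0.0497% of all genes called, and 0 of 7 had an unadjusted p under the threshold, where 12% of all genes did. Cd74 differed by 0.01 ± 0.24 on the log2 scale, males over females, H2-Aa by -0.17 ± 0.25 and H2-Ab1 by 0.12 ± 0.23.

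Ciita was the farthest from 0, at 0.41 ± 0.23, with a 95% interval of -0.09 to 0.91 and an adjusted p of 0.436 in edgeR. Males 1 to 3 of the stressed arm and males 2 and 3 of the control arm, at 7.51 to 11.2 CPM, were above each of the 6 females, at 6.08 to 7.16 CPM, and control male 1 was below them all. For none of the 7 genes did the sexes stand wholly apart, where 0.143% of all genes had each male lower and 0.112% had each male higher. Without control male 1 the estimate was 0.59, with an unadjusted p of 0.000587 and an adjusted p of 0.443, and over all single libraries left out it ran from 0.30 to 0.59 with adjusted p-values of 0.208 to 0.759. Ciita in males is thus reported as not passing the test.

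The class II genes moved with each other from library to library, and Ciita least so. As a measure of likeness, the root mean square difference was taken between centred log2 CPM profiles over the 12 libraries, where a smaller value means a more similar profile. It was 0.07 between Cd74 and the mean profile of the 7 genes, 0.13 for H2-Aa, 0.15 for H2-Eb1, 0.17 for H2-Ab1, 0.21 for H2-DMa, 0.22 for H2-DMb1 and 0.32 for Ciita. A gene with no variation at all would be at 0.38. Set among 14513 genes of at least 1 CPM outside the 7, Cd74 would rank 2, H2-Aa 10, H2-Eb1 21 and H2-Ab1 55. H2-DMa would rank 191, H2-DMb1 242 and Ciita 1882. Many genes outside the set were thus nearer to the mean profile than the H2-DM chains and Ciita, and such likeness is not particular to class II genes. The mean profile includes each gene itself, and a good part of the likeness comes from control male 1 and control male 3, which lay -1.04 and 0.58 from the mean. The closest pair was H2-Aa with H2-Eb1, at 0.10, and the farthest was Ciita with H2-DMa, at 0.51.

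Among 14513 genes with a mean of at least 1 CPM, the 8 nearest to the mean profile were Itgb2 at 0.06, Krt19, Ctsc and Cdca7 at 0.10 to 0.11, and Gca, Fermt3, Plek and Cldn3 at 0.11 to 0.13. Itgb2 is the β2 integrin of leukocytes, Fermt3 its kindlin partner and Plek a protein of blood cells, while Krt19 is an epithelial keratin, Cldn3 a tight junction protein and Ctsc a lysosomal protease. Itgb2 stood at 7.999, 10.2 and 8.57 CPM in stressed males, against 4.42, 11.7 and 13.0 CPM in control males. Krt19 stood at 483, 565 and 445 CPM in stressed males, against 223, 559 and 729 CPM in control males. These genes were picked for their likeness, so that their order over the control males is no separate result. The marker lists were not picked so, although that of all leukocytes holds Itgb2. The markers of all leukocytes lay at -0.68, 0.46 and 0.33 in control males 1, 2 and 3, and the T cell markers at 0.21, 0.87 and -0.49.

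Within a library the ratio of H2-Aa to H2-Eb1 was steady and the ratio of H2-Ab1 to H2-Aa was not. In FPKM the first ran from 0.949 to 1.25 over the 12 libraries. The second was 1.68, 1.02 and 1.62 in stressed males, against 1.31, 0.974 and 1.40 in control males, and 0.887 to 1.07 in stressed females, against 1.03 to 1.21 in control females. Ciita over H2-Aa was 0.0381, 0.0190 and 0.0398 in stressed males, against 0.0255, 0.0239 and 0.0233 in control males, and 0.0158 to 0.0184 in stressed females, against 0.0163 to 0.0226 in control females. The 3 libraries richest in Yam1 reads were the 3 highest for Ciita over H2-Aa, and 2 of them were the highest for H2-Ab1 over H2-Aa. Without these 3 libraries the log2 difference of Ciita between stressed and control males was -0.50, against 0.20 with them, and that of H2-Ab1 was -0.40, against 0.04. That fit holds 1 stressed male, which is assumed to vary like the other groups, and the part of Yam1 in the ratios was not tested.

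**Figure D3:**
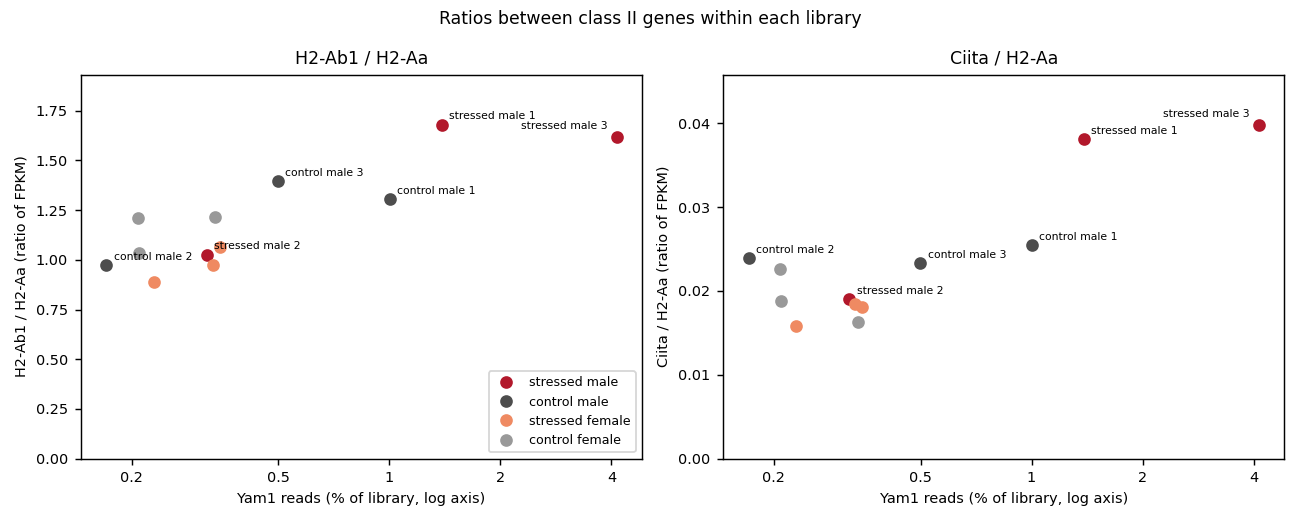
Ratio of H2-Ab1 to H2-Aa and of Ciita to H2-Aa in FPKM (y axes) against the share of a library's reads in Yam1 (x axis, percent, log scale); each point is 1 library, coloured by group, and males are named. Stressed males 1 and 3 have the highest ratios, 1.68 and 1.62 on the left and 0.0381 and 0.0398 on the right, and the highest Yam1 shares.

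The other genes of the class II region were far lower. H2-DMb2, H2-Ob, H2-Oa and H2-Eb2 were tested and 0 of 4 were called in any comparison, with 0 of 4 below 0 in litters at a median of 0.17, against 48.7% of all genes. Without control dam 3, 2 of 4 were below 0, at a median of -0.06. H2-Oa and H2-Ob encode H2-DO, an inhibitor of H2-DM that is known from B cells, whose 9 markers were likewise 0 of 9 below 0 in litters, at a median of 0.27, and 6 of 9 without control dam 3. H2-Oa stood at 0.659 ± 0.0986 CPM in stressed litters, against 0.374 ± 0.183 CPM in control litters (SD, n = 3 each), and each stressed litter was above each control litter, as 2.53% of all genes were. The log2 difference was 0.79 ± 0.40, with an unadjusted p of 0.0843 and an adjusted p of 1.00 in edgeR, so that it did not pass, and the gene had only 3 to 17 reads a library. H2-DMb2 differed by 0.09 ± 0.17. H2-Ob stood at 2.52, 4.76 and 4.57 CPM in stressed males, against 2.86, 8.10 and 0.845 CPM in control males. It was thus lowest in control male 3, the library highest in H2-Aa by CPM but not by FPKM.

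Of the 8 factors that bind the X and Y boxes, 0 were called in any comparison, where at most 0.0497% of all genes were. In litters 7 of 8 lay below 0 at a median of -0.05, against 48.7% of all genes. Without both pups of control dam 3, 6 of 8 lay below 0 in males and 4 of 8 in females, against 47.9% and 50.7% of all genes. The 2 of smallest unadjusted p in litters were Rfxank, a subunit of RFX on the X box, at -0.17 ± 0.12 on the log2 scale, and Nfya, a subunit of NF-Y on the Y box, at -0.08 ± 0.07. Both had an adjusted p of 1.00 in edgeR. The highest library was 1.19-fold above the lowest for Nfya, the steadiest of the 8, and 1.74-fold for Rfx5, the most variable, while for H2-Aa it was 3.25-fold.

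Genes from interferon gamma to Ciita were tested as well. Ifng itself had 2 reads over the 12 libraries and did not pass the filter. Of the other 9 genes 0 were called, 8 lay below 0 in males at a median of -0.30 and 9 in litters at a median of -0.17, against 48.3% and 48.7% of all genes. Without control dam 3, 5 of 9 lay below 0 in litters, at a median of -0.03. In males without that dam's pups 7 of 9 did, at -0.21, against 47.9% of all genes. In females 2 of 9 did, at 0.02, against 50.7%. Usf1, which binds a Ciita promoter, differed by -0.21 ± 0.10 on the log2 scale in litters, with an unadjusted p of 0.0682 and an adjusted p of 1.00 in edgeR, so that it did not pass.

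The 10 genes of endolysosomal processing, the cathepsins and their companions that cut antigen and the invariant chain, were 0 of 10 called in any comparison. In males 10 of 10 lay below 0 with stress at a median of -0.28, against 48.3% of all genes, and in litters 10 of 10 at -0.14, against 48.7%. The 10 epithelial markers were also 10 of 10 below 0 in males, at -0.17, and in litters, at -0.10. Ctsl, a cathepsin that cuts Cd74, differed by -0.65 ± 0.33 in litters, with an unadjusted p of 0.0888, and Ifi30, a lysosomal thiol reductase, by -0.28 ± 0.18, both with an adjusted p of 1.00 in edgeR. Ctsl stood at 702, 1158 and 594 CPM in stressed males, against 1202, 1070 and 1576 CPM in control males. In females it stood at 1583, 1228 and 1165 CPM in stressed pups, against 1582, 991 and 3481 CPM in control pups. The list was low in stressed males 1 and 3, with median deviations of -0.54 and -0.97 from the mean of the 12 libraries, against -0.12 to 0.35 in the other 10. These are also the libraries richest in Yam1 and poorest in mitochondrial reads. Without the 3 libraries rich in Yam1, in a fit that holds 1 stressed male, 2 of 10 lay below 0 in males, at a median of 0.15. Without both pups of control dam 3, 10 of 10 lay below 0 in males, at a median of -0.43, against 47.9% of all genes. In females of that fit 2 of 10 did, at 0.06, against 50.7%. In males over females, 10 of 10 lay below 0 at a median of -0.45, against 50.6% of all genes, with 0 called, and without those libraries 8 of 10 did, at -0.05.

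Of the genes of class II turnover and costimulation 7 were tested and 0 were called, with 6 of 7 below 0 in litters at a median of -0.04, against 48.7% of all genes. Without control dam 3, 4 of 8 tested lay below 0. Icosl differed by -0.50 ± 0.23 in litters, with an unadjusted p of 0.0623, and March8, a ubiquitin ligase that removes class II from the surface, by -0.19 ± 0.10, with an unadjusted p of 0.0973. Both had an adjusted p of 1.00 in edgeR. Icosl stood at 6.39, 12.02 and 6.67 CPM in stressed males, against 9.28, 14.7 and 19.96 CPM in control males. Its highest values, 19.96 and 20.8 CPM, were in both pups of control dam 3.

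Since the libraries are from whole tissue, fewer cells that carry class II and less class II RNA in each cell cannot be told apart. Marker lists of cell types were therefore set beside the 7 genes, as median deviations from the mean of the 12 libraries on the log2 scale. In control male 1 the 7 genes lay at -1.08, the 9 macrophage markers at -1.52, the 10 dendritic cell markers at -0.72, the 5 markers of all leukocytes at -0.68, the 10 epithelial markers at -0.38 and the 9 B cell markers at -0.05. Of the leukocyte markers (Laptm5, Coro1a and Ptprc the most abundant), Ptprc, the antigen CD45, stood at 11.98 CPM there, against 19.8 to 37.4 CPM in the other 11 libraries, and Itgax, an integrin of dendritic cells, at 4.15 CPM against 8.79 to 19.6 CPM. Not every marker was low in this pup. Csf1r and Mertk, receptors of macrophages, stood at 164 and 109 CPM, inside the range of the other libraries, while Cx3cr1 stood at 15.1 CPM against 24.9 to 38.9 CPM. The part of these cells in the class II level of control male 1 was not tested.

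Control male 3, by TMM-scaled CPM the library highest in 6 of the 7 genes over all males, had few B cell reads. Its TMM factor, 0.876, was the lowest of the 12 libraries, which raises its CPM. In FPKM, which are not scaled by TMM, it was the highest male for H2-Ab1, Cd74 and H2-DMb1. It was not the highest there for H2-Aa, H2-Eb1 and H2-DMa. The B cell markers, with Cd79a, Cd79b and Ms4a1 the most abundant, summed to 6.96 CPM there, against 72.9 CPM in control male 2 and 19.4 to 66.6 CPM in the other 10 libraries. The markers disagreed there, with Fcer2a at 0 and Cd79a at 0.390 CPM, but Cd79b at 2.21 CPM and Cd22 at 2.41 CPM, close to its lowest value elsewhere of 2.37 CPM. Its class II genes lay at 0.52, its macrophage markers at 0.53, its dendritic cell markers at 0.17, its epithelial markers at 0.34 and its B cell markers at -2.55. H2-Ob and H2-Eb2 were lowest in the same library, at 0.845 and 0 CPM. The part of B cells in the class II level of this library was not tested. In control female 3 the class II genes lay at 0.38, the macrophage markers at 0.65 and the B cell markers at -0.67.

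In summed level the stressed and control groups of each sex overlapped for the macrophage, dendritic cell, epithelial and B cell markers. Summed macrophage markers, with Csf1r, Mertk and Cx3cr1 the most abundant, ran from 381 to 408 CPM in stressed males, against 321 to 535 CPM in control males, and from 375 to 401 CPM in stressed females, against 386 to 512 CPM in control females. Summed dendritic cell markers, with Itgax, Zbtb46 and Siglech the most abundant, ran from 28.5 to 32.0 CPM in stressed males, against 24.6 to 37.7 CPM in control males. Epithelial markers, with Lgals4, Epcam and Krt8 the most abundant, ran from 6790 to 8176 CPM in stressed males, against 6134 to 10344 CPM in control males. Summed B cell markers ran from 38.9 to 66.6 CPM in stressed males, against 6.96 to 72.9 CPM in control males, and from 25.7 to 49.9 CPM in stressed females, against 19.4 to 28.6 CPM in control females. No gene of any marker list was called between stressed and control pups, where 0% of all genes were called. Some lists lay wholly on one side of 0 with stress. The B cell markers were 0 of 9 below 0 in males, at a median of 0.21, and in females, at 0.44. The macrophage markers were 9 of 9 below 0 in females, at -0.26. Of all genes, 48.3% were below 0 in males and 51.5% in females. Without both pups of control dam 3 these counts were 9 of 9 and 1 of 9 for the B cell markers in males and in females, and 4 of 9 for the macrophage markers in females. In the same fit the epithelial markers were 4 of 10 below 0 in males. Of all genes in that fit, 47.9% were below 0 in males and 50.7% in females. The T cell markers (Cd4, Lck and Cd3g the most abundant) lay between -0.49 and 0.87 over the 12 libraries, and in control male 1 they were at 0.21.

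**Figure D4:**
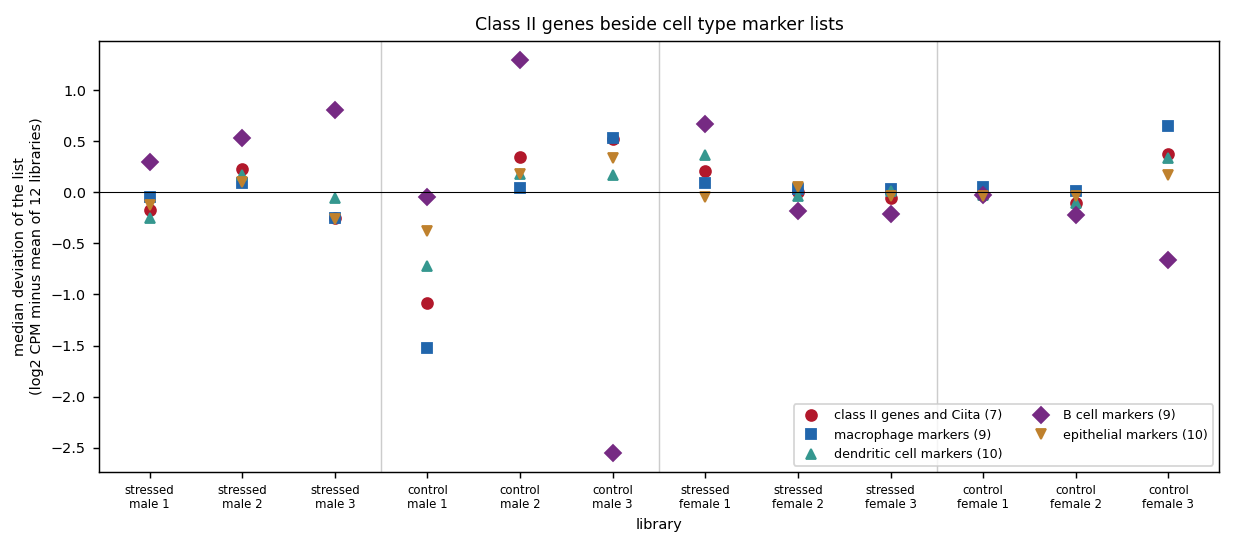
Median deviation of each gene list (y axis, log2 CPM minus the mean of the 12 libraries) in the 12 libraries (x axis), for the 7 class II genes and 4 lists of cell type markers. The class II genes lie at -1.08 in control male 1, where macrophage markers are at -1.52, and at 0.52 in control male 3, where B cell markers are at -2.55.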

How the data were processed

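Ileum RNA of 12 pups was sequenced in 4 groups of 3. The submitters' processing notes name the builds mm10 and GRCm38 and the tools HTSeq 0.6.1, edgeR 3.16.5, STAR 2.5, DESeq2 and TopHat; strandedness and annotation release are not stated. The deposited table holds raw counts of reads per gene, and the deposited FPKM are these counts scaled to gene length and to the library's sum. The authors' comparison table gives, per the file headers, log2 fold changes, each with its p-value before and after adjustment.

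The quasi-likelihood F test of edgeR 4.0.16 (R 4.3.3) was used on 16102 genes kept by filterByExpr, with TMM scaling. 1 fit of the 4 groups has 8 residual degrees of freedom, and summed litters (16749 genes) have 4. p-values were adjusted over all genes tested (Benjamini-Hochberg, called under 0.05), and edgeR's test of males was checked on simulated data. An exact test of 3 against 3 cannot go below 0.1. Littermates are separate animals of 1 dam. By the labels the dam number pairs littermates, whose deviations correlated at -0.362 to 0.545. Those of equally numbered stressed and control pups correlated at -0.329 to 0.306. These ranges overlap, so they cannot decide whether the number also pairs a stressed with a control pup. The labels give no such pairing.

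Named are the 7 genes, H2-Ea-ps and Nlrc5, from each pathway list the called genes or otherwise the 2 of smallest unadjusted p in litters, from each marker list the 3 of highest mean CPM, and the 8 most alike genes; Yam1, Fcer2a and the promoter matches were named after their values were seen. Some named genes are not reported here. The 7 genes and the lists were chosen with earlier results of these data known. Alternatives were DESeq2 1.42.0, limma 3.58.1 (voom, and log2 of FPKM plus 1 or 0.1), median-ratio size factors in edgeR, no filter or a mean of at least 1 CPM, a block by dam or dam number, 1 sex alone, pups with sex as covariate, each library or dam left out, and fits without both pups of control dam 3 or without the 3 libraries rich in Yam1 reads.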

Additional observations from a re-analysis of the deposited data

Results flagged for a closer look

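For H2-Ab1 the female of control dam 3 had 118 CPM, with the remaining females at 81.1 to 92.8 CPM, a gap of 0.680 of the whole range of the 6 females. For H2-DMb1 the same pup had 11.98 CPM, with the remaining females at 7.19 to 7.88 CPM, a gap of 0.855 of the range. Both gaps are above Dixon's critical value for 6 samples, which chance passes in about 1 in 20 groups. The 7 genes were screened in 28 groups of 6 libraries (males, females, stressed and control pups), and these 2 passed. Both values are from control dam 3, whose male pup was also the highest of the males for these 2 genes, at 148 and 13.0 CPM. Both pups of this dam were high in genes of the upper small intestine, whose part in these values was not tested.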

How the results depend on the processing

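Over the alternatives 742 values of the 7 genes were computed, 629 kept the sign of the reported value, and none had an adjusted p under 0.05, with a smallest of 0.208 (edgeR, limma or DESeq2). The changes of sign are of values that do not pass the test, and their cause was not tested. The depth, 16423523 reads at the least, gives Ciita and the H2-DM chains few counts, and 3 pups in a group leave wide intervals at any depth.

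The log2 values that changed sign were as follows. With limma-voom they were Cd74 0.0016 in males, H2-DMb1 0.071 in the male minus female difference, H2-Aa 0.0033 in litters and Cd74 -0.081 in males over females. With limma on log2(FPKM + 1) they were H2-Aa 0.034 and Cd74 0.051 in males, Ciita 0.010 in females, H2-DMb1 0.040 in the difference, H2-Aa 0.062, H2-Ab1 0.053 and Cd74 0.025 in litters, and H2-Ab1 -0.020 and Cd74 -0.15 in males over females. With log2(FPKM + 0.1) they were H2-Aa 0.038 and Cd74 0.053 in males, Ciita 0.016 in females, H2-DMb1 0.047 in the difference, H2-Aa 0.063, H2-Ab1 0.054 and Cd74 0.025 in litters, and H2-Ab1 -0.022 and Cd74 -0.15 in males over females. Without both pups of control dam 3 they were H2-Aa 0.093, Cd74 0.21, H2-DMa 0.10 and H2-DMb1 0.13 in males, H2-Ab1 0.041 in females, and Cd74 0.089 and H2-DMb1 0.16 in the difference. The same setting gave H2-Aa 0.15, H2-Ab1 0.22, H2-Eb1 0.049, Cd74 0.13, H2-DMa 0.10 and H2-DMb1 0.026 in litters, and H2-Ab1 -0.0052 and Cd74 -0.12 in males over females. Without the 3 libraries rich in Yam1 reads they were H2-Ab1 -0.40 and Ciita -0.50 in males, H2-Ab1 -0.26 and Ciita -0.48 in the difference, and H2-Aa 0.19, H2-Eb1 0.24, H2-DMa 0.25 and H2-DMb1 0.16 in males over females. H2-Eb1 in females was -0.0041 with median-ratio size factors and with DESeq2 and -0.0095 with no filter. Cd74 in males over females was -0.00078 with no filter and -0.00095 among genes of at least 1 CPM.

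With the dam as a replicate block, H2-DMb1 was 0.038 in the difference and Cd74 -0.077 in males over females, and with the dam number as a replicate block H2-Aa was 0.0052 in litters. The block changed no call of the 7 genes.

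With single libraries left out, the values in males ran for H2-Aa from -0.54 to 0.093, H2-Ab1 -0.32 to 0.49, Cd74 -0.54 to 0.21, Ciita -0.16 to 0.42, H2-DMa -0.62 to 0.097 and H2-DMb1 -0.53 to 0.13. In females they ran for H2-Aa from -0.036 to 0.25, H2-Ab1 -0.28 to 0.045, H2-Eb1 -0.12 to 0.17, Cd74 -0.067 to 0.12, Ciita -0.086 to 0.047 and H2-DMa -0.13 to 0.15. In the difference they ran for H2-Ab1 from -0.17 to 0.63, Cd74 -0.57 to 0.18, Ciita -0.15 to 0.44, H2-DMa -0.61 to 0.085 and H2-DMb1 -0.26 to 0.41. In males over females they ran for H2-Aa from -0.29 to 0.020, H2-Ab1 -0.099 to 0.30, H2-Eb1 -0.29 to 0.016, Cd74 -0.17 to 0.20 and H2-DMb1 -0.28 to 0.044. In litters, with single dams left out, they ran for H2-Aa from -0.21 to 0.15, H2-Ab1 -0.29 to 0.22, H2-Eb1 -0.31 to 0.049, Cd74 -0.28 to 0.13, Ciita -0.13 to 0.20, H2-DMa -0.25 to 0.10 and H2-DMb1 -0.45 to 0.026.

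Over all genes, 8 were called between males and females, 18 with DESeq2, 5 without the libraries rich in Yam1 reads, and 8 to 1384 with single libraries left out, the highest without stressed male 2. Between stressed and control males 0 were called, and 0 to 1 with single libraries left out.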

Other observations

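Genes of MHC class I presentation, the route for cytosolic peptides, were set beside the class II genes. Of 10 such genes 0 were called by edgeR in any comparison, 9 of 10 lay below 0 in males with stress at a median of -0.39 on the log2 scale, and 10 of 10 in litters at -0.26, against 48.3% and 48.7% of all genes. Without control dam 3, 6 of 10 lay below 0 in litters, at a median of -0.03. In males without that dam's pups 9 of 10 still did, at -0.19, against 47.9% of all genes. In females 3 of 10 did, at 0.10, against 50.7%. Tapbp, the tapasin that links class I to the peptide transporter, stood at 192, 191 and 168 CPM in stressed males, against 266, 194 and 257 CPM in control males. In females it stood at 166, 180 and 171 CPM in stressed pups, against 170, 187 and 222 CPM in control pups. The log2 difference of Tapbp in litters was -0.27 ± 0.10 and each stressed litter was below each control litter, as 3.18% of all genes were, with an unadjusted p of 0.0340 and an adjusted p of 1.00 in edgeR, so that it did not pass. Tap2, a subunit of that transporter, differed by -0.25 ± 0.13, with an unadjusted p of 0.0971.

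Nlrc5, the transactivator of class I genes and a relative of Ciita, stood at 1.56, 1.96 and 1.78 CPM in stressed males, against 1.83, 2.08 and 2.21 CPM in control males. In females it stood at 1.78, 1.14 and 1.20 CPM in stressed pups, against 1.07, 1.42 and 3.14 CPM in control pups. The log2 difference in litters was -0.34 ± 0.27, with an adjusted p of 1.00 in edgeR. Unlike Ciita, Nlrc5 was not low in control male 1, at 1.83 CPM.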
